A study of Rattus norvegicus with 9 samples.

Results

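Neurons hold on to each other at synapses through families of cell surface proteins, and 61 genes of these families were measured here in dendrites of cultured rat hippocampal neurons. They were all genes of the array whose symbol, in the platform's gene table, belongs to the cadherins, protocadherins, catenins, neuroligins, neurexins, SynCAMs (Cadm), Ncam, L1cam, contactins (Cntn) or contactin-associated proteins (Cntnap). They were reached by 90 probe sets, and 14217 genes were measured in all. Where several probe sets named only that gene, their median stood for it, and 4 probe sets that name several clustered protocadherins at once were left out.

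Dendrites were severed from neurons of Sprague-Dawley rat embryos (embryonic day 19) after 14 days in primary culture, without treatment, and their RNA was amplified over several rounds before hybridisation. There were 3 arrays for pools of 100 dendrites, 3 for pools of 200 and 3 for pools of 400, labelled as biological replicates. The study notes that axons could not be told from dendrites by shape in these cultures, so the pools may hold some axonal RNA. The comparisons asked which adhesion genes gave a high or low signal in dendrites, how steady that signal was from array to array, and whether it differed with the number of dendrites in the pool. Values are log2 signals. A signal also depends on how well a probe binds, so percentiles below are ranks of signal among the 14217 genes, not amounts of RNA.

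Classical cadherins join cells by binding the same cadherin on the opposite membrane, and inside the cell their tails bind catenins, which link them to actin. Neurexins on the axon side bind neuroligins on the dendrite side, and the SynCAMs, Ncam, L1cam and contactins bind each other or themselves across or along the membrane. Clustered protocadherins give each neuron its own surface identity and serve in the self-avoidance of dendrites.

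Before the results, 1 array stood apart: replicate 1 of the 400-dendrite pools had the lowest mean correlation with the other arrays (r = 0.749 over probe sets, against 0.777 to 0.839 for the other 8). The same array held 1532 distinct values among 31042 probe sets, where the others held 1673 to 4043. It was the lowest or the highest array for 36.1% of the 61 adhesion genes and for 33.9% of all genes. Replicate 1 of the 100-dendrite pools came next, with r = 0.777 and 1673 distinct values. That array was the lowest or the highest for 31.1% of the 61 genes and for 31% of all genes. The 3' minus 5' difference of the Gapdh control probe sets ran from 0.84 to 2.99 log2 units over the arrays, and was largest there. That of the beta-actin control probe sets ran from -0.43 to 2.41, and was largest in replicate 2 of the 400-dendrite pools. This last array was the lowest or the highest for 31.1% of the 61 genes, beside 22.8% of all genes. The study describes the neurons as pyramidal. The pools gave high signals for the neuronal markers Neurod2 (13.60 ± 0.18, SD, n = 9) and Nrgn (12.18 ± 0.17), while Camk2a stood at the 26.3 percentile. Astrocyte markers were at 7.87 to 8.74 on average per array in pools of 100, 6.99 to 8.50 in pools of 200 and 7.41 to 8.49 in pools of 400, with S100b and Gfap at the 91.1 and 86.0 percentiles and Aqp4 at 7.38. Markers of fibroblasts and mural cells were at 6.65 to 7.64, 7.08 to 7.64 and 7.01 to 8.97. Of the endothelial markers Vwf and Esam stood at the 99.8 and 98.6 percentiles, but Tek stood at 8.47 and the median of the 7 was 53.0. All 7 measured oligodendrocyte lineage markers were above the 50th percentile, with a median of 74.8. Microglia and interneuron markers had medians of 24.5 and 30.0. The source of these signals was not tested. RNA from fewer cells of a type cannot be told from less RNA per cell in such pools. The 12 genes of other organs, taken as a reference for signal without known dendritic RNA, had a median percentile of 19.3, but 3 of them were above the 50th percentile and Hbb reached 83.5.

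The adhesion genes ranged from near the top to near the bottom of all genes. Their median percentile was 60.6, 38 of 61 stood above the 50th percentile (50% of all genes do), and 13 stood below the 25th (25% of all genes). In the top 5% were 4 of 61, or 6.56%, beside 5.01% of all genes, namely Ctnnd2, Cdh10, Pcdhb22 and Ctnnbip1. In the top 10% were 8 of 61, with Cadm1, Cntn1, Ctnnb1 and Cdh13 added, beside 10% of all genes. Above Hbb, the highest of the genes of other organs at the 83.5 percentile, stood 10 of 61. Below the median percentile of those genes, 19.3, stood 12 of 61. As percentiles rank all genes, both counts were close to the shares of all genes. The per-array median of the 61 genes stayed between the 52.1 and the 62.2 percentile.

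**Figure D1:**
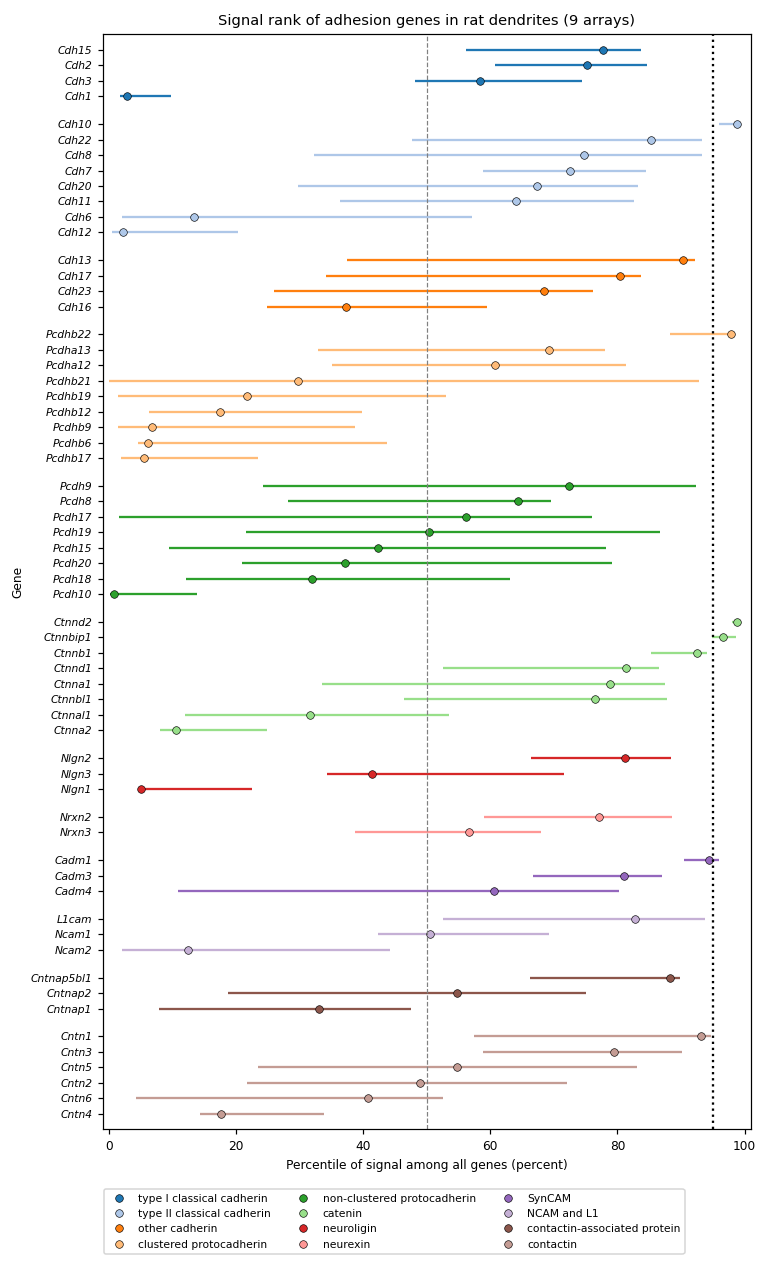
Each point is 1 of the 61 adhesion genes, placed by the percentile of its median rank among 14217 genes (horizontal axis, percent), and its bar runs from the lowest to the highest of the 9 arrays. Colours are families, the dotted line marks the top 5% and the dashed line the 50th percentile. Ctnnd2 and Cdh10 had short bars at 98.8 and 98.7, and Pcdhb21 had a bar from 0.0528 to 92.9.

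Among the catenins, Ctnnd2 had the highest gene value of all 61 genes. It was measured by 1 probe set, as were Cdh10 and Pcdhb22. Single probe sets of Cadm1 and Ctnnb1 had higher means, 11.84 and 11.74, than the 11.63 of Ctnnd2. Ctnnd2 encodes delta-catenin, a neuronal catenin of dendrites that binds cadherin tails next to the membrane. Its values were 11.74, 11.65 and 11.72 in replicates 1 to 3 of the 100-dendrite pools, 11.60, 11.67 and 11.57 in pools of 200, and 11.64, 11.48 and 11.64 in pools of 400. All 9 arrays thus lay within 0.3 log2 units of each other. The mean was 11.63 ± 0.08 (SD, n = 9), and only 4 of 14217 genes had a smaller SD. Genes of the top 5% had a median SD of 0.48, and 3 of those 712 genes had a smaller SD than Ctnnd2.

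Ctnnbip1, an inhibitor that keeps beta-catenin from its transcription factor partner, was the other catenin-named gene of the top 5%, at 10.86 ± 0.52 (SD, n = 9). Its 3 probe sets all stood high, at means of 11.09, 10.64 and 10.27. Ctnnb1, which encodes beta-catenin, stood at the 92.5 percentile with 9.66 ± 0.36, and its arrays ran from 9.09 to 10.06 with the 3 pool sizes overlapping. Ctnnd1, which encodes p120-catenin, Ctnna1, which encodes the alpha-catenin of many tissues, and Ctnnbl1, a splicing-associated gene that carries a catenin name only, stood at 81.4, 78.8 and 76.4. Ctnna2, the alpha-catenin of neurons, stood low, at the 10.5 percentile, and its 9 arrays all lay between 5.81 and 6.64. Ctnna2 and Ctnna1 were each measured by 1 probe set, so that their order cannot be read as an order of RNA. Ctnnal1, an alpha-catenin relative, stood at 31.6.

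The type II cadherin Cdh10 and Ctnnd2 were the 2 of 61 adhesion genes that stayed in the top 5% on every array (3.28%, beside 2.15% of all genes). Cdh10 was at 11.54, 11.74 and 11.62 in pools of 100, 11.53, 11.75 and 11.71 in pools of 200, and 10.55, 11.62 and 11.66 in pools of 400. Replicate 1 of the 400-dendrite pools was about 1 log2 unit below the others, and without it the SD fell from 0.37 to 0.08 (n = 8). Of the other type II cadherins, Cdh22 stood at the 85.3 percentile, Cdh8 at 74.7, Cdh7 at 72.6, Cdh20 at 67.3 and Cdh11 at 64.1, whereas Cdh6 and Cdh12 stood at 13.3 and 2.25. Cdh12 ranged from 5.02 to 6.44 over the 9 arrays and never reached the 50th percentile.

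Among the 4 type I cadherins, Cdh2, which encodes the N-cadherin of excitatory synapses, was at 8.53 ± 0.39 (SD, n = 9, percentile 75.1) and above the 50th percentile on every array. Its 3 probe sets had means of 8.78, 8.35 and 8.08. Cdh1, which encodes the E-cadherin of epithelia, was near the bottom at 5.52 ± 0.25 and the 2.79 percentile, and its 9 arrays stayed between 5.21 and 5.90. Cdh15, known from muscle, was at 8.45 ± 0.40 and the 77.7 percentile, and Cdh3, known from placenta, was at 58.4. Of the other cadherins, Cdh13, which encodes a cadherin anchored by lipid without an intracellular tail, stood at 90.4, and Cdh17 and Cdh16, known from the intestine and the kidney, stood at 80.3 and 37.3. Cdh23 of the inner ear stood at 68.4. These genes of other organs within the family were each measured by 1 probe set except Cdh1, and the source of their signal was not tested.

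**Figure D2:**
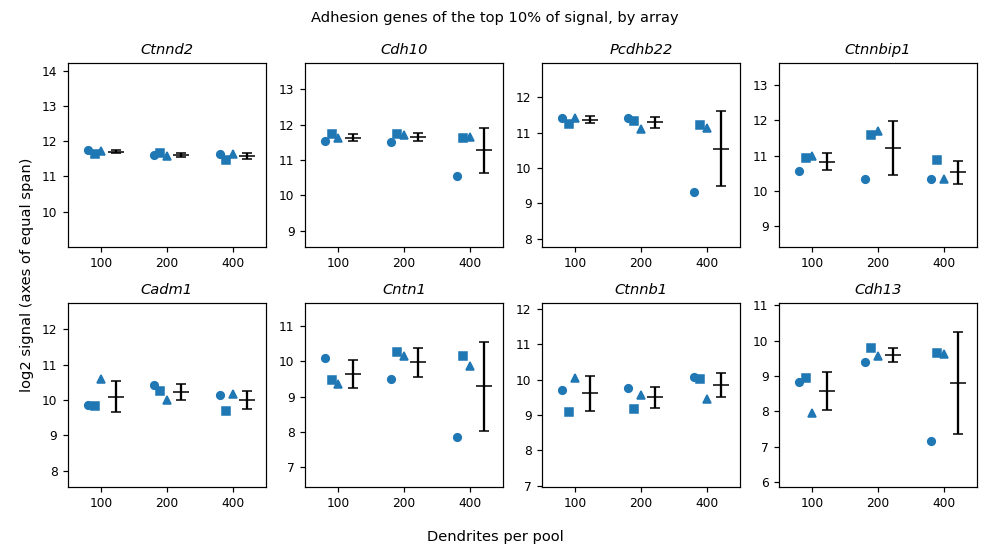
Log2 signal (vertical axes of equal span) of the 8 adhesion genes of the top 10% in pools of 100, 200 and 400 dendrites. Circles, squares and triangles are replicates 1, 2 and 3, which are separate samples, and each bar gives mean and SD for the 3 arrays. Replicate 1 of the 400-dendrite pools was the lowest array for Cdh10, Pcdhb22, Ctnnbip1, Cntn1 and Cdh13, while Ctnnd2 stayed at 11.48 to 11.74.

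Clustered protocadherins stood mostly low. Of 9 such genes 3, Pcdhb22, Pcdha13 and Pcdha12, were above the 50th percentile, and the median was 21.6. Pcdhb22 was at 11.43, 11.25 and 11.42 in pools of 100, 11.43, 11.33 and 11.12 in pools of 200, and 9.31, 11.21 and 11.13 in pools of 400, which put it at the 97.9 percentile. The value of 9.31 belonged to the array that stood apart, and without it Pcdhb22 was at 11.29 ± 0.13 (SD, n = 8). Pcdha13 and Pcdha12 followed at 69.2 and 60.7, and Pcdhb19, Pcdhb12, Pcdhb9, Pcdhb6 and Pcdhb17 ran from 21.6 down to 5.56. Members of this cluster resemble each other in sequence, and whether they share signal on the array was not tested. Pcdhb21 had the widest spread of the 61 genes, with a lowest array of 4.75, a median of 6.94 and a highest of 9.92.

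Protocadherins outside the cluster, which act in the sorting of neurites and of synapses, stood near the middle, with a median percentile of 46.3 and none of 8 in the top 10%. Pcdh9 was highest at 72.4 and Pcdh10 lowest at 0.788, the lowest of all 61 genes, with 4.86 to 6.13 over the 9 arrays. Between them were Pcdh8 at 64.4, Pcdh17 at 56.2, Pcdh19 at 50.3, Pcdh15 at 42.3, Pcdh20 at 37.2 and Pcdh18 at 31.9. Pcdh9 and Pcdh17 were among the 3 genes of widest spread, with SDs of 1.05 and 0.98, next to Pcdhb21 with 1.54.

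The synaptic partners were spread over the range. Of the neuroligins, which sit on the dendrite side, Nlgn2 of inhibitory synapses was at 8.78 ± 0.38 (SD, n = 9, percentile 81.1), Nlgn3 at 7.51 ± 0.49 (41.4) and Nlgn1 of excitatory synapses at 5.89 ± 0.33 (4.98). Both probe sets of Nlgn1 were low, with means of 5.97 and 5.82, and it stayed below the 50th percentile on every array, as did 12 of 61 adhesion genes and 21.8% of all genes. Nlgn2 stayed above it on every array, as did 17 of 61 and 22.3% of all genes. The arrays ran from 8.16 to 9.33 for Nlgn2 and from 5.55 to 6.55 for Nlgn1. The axonal partners Nrxn2 and Nrxn3 stood at 77.1 and 56.6.

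All 3 SynCAM genes were above the 50th percentile. Cadm1, which encodes SynCAM 1, was at 10.11 ± 0.30 (SD, n = 9, percentile 94.5), Cadm3 at 8.71 ± 0.34 (81.0) and Cadm4 at 7.90 ± 0.84 (60.6). L1cam, a guidance molecule of axons, was at 8.86 ± 0.72 (82.8), Ncam1 at 7.71 ± 0.29 (50.5) and Ncam2 at 6.29 ± 0.64 (12.4). Among the contactins, which are anchored by lipid and pair with contactin-associated proteins, Cntn1 was at 9.64 ± 0.75 (93.1). Its lowest array, 7.85, was again replicate 1 of the 400-dendrite pools. Cntn3, Cntn5, Cntn2, Cntn6 and Cntn4 followed at 79.5, 54.8, 48.9, 40.7 and 17.6. Cntn4 was among the 3 genes of smallest SD, 0.29, with Ctnnd2 and Cdh1. Cntnap5bl1 stood at 88.3, Cntnap2 at 54.7 and Cntnap1 at 33.1.

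Different probe sets of the same gene disagreed, and for several genes this set the rank. Of the 61 genes 20 had more than 1 probe set, and for 11 of the 20 the probe sets lay on both sides of the middle of all probe sets. The median gap between a gene's highest and lowest probe set was 1.89 log2 units, beside 1.54 for the 4525 genes of the array with more than 1 probe set. Over the 9 arrays r between these 2 probe sets was below 0 for 10 of the 20 genes. It ran from -0.606 for Cadm3 to 0.710 for Ctnnbip1, and was -0.382 for Cdh2. For the genes with r below 0, SDs, differences and correlations thus rest on medians of probe sets of which the highest and lowest did not move together. Ctnnb1 had the widest gap, 5.36. Its probe sets 1373067_at, 1373470_at, 1375284_at and 1369733_at had means of 11.74 ± 0.61, 11.22 ± 0.57, 8.15 ± 0.32 and 6.38 ± 0.49 (SD, n = 9 each), at the 98.2, 97.3, 67.4 and 26.7 percentiles of probe sets. The first was above the last on all 9 arrays.

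The next widest gaps were those of Cdh13 (means of 10.47, 8.99 and 6.78), Nrxn2 (10.41 and 6.78), Cadm1 (11.84 and 8.37) and Cadm3 (10.39 and 7.04), and in each the order of the highest and the lowest probe set was the same on all 9 arrays. The middle value of Ncam1, 7.66, lay between a probe set at 9.85 and one at 6.91. With each gene read from its brightest probe set on average, Cadm1 moved from the 94.5 to the 98.0 percentile and Ctnnb1 from 92.5 to 97.5, and 6 of 61 genes were in the top 5%. The probe sets of Nlgn1, Nlgn3, Pcdhb12, Cdh2 and Ctnnbip1 differed by less than 1 log2 unit. Where the probe sets of a gene lie along its transcript was not analysed here.

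**Figure D3:**
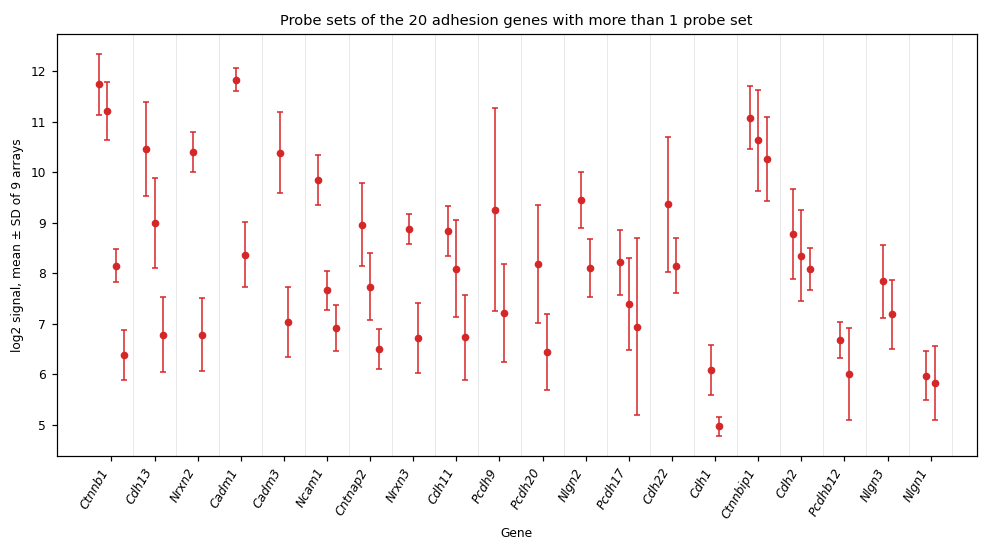
Points are the probe sets of the 20 adhesion genes that have more than 1, with their mean log2 signal (vertical axis) and SD over 9 arrays, ordered by the gap between highest and lowest. Ctnnb1 is leftmost with means from 6.38 to 11.74, and Nlgn1 rightmost with 5.82 and 5.97.

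Between pools of 400 and 100 dendrites none of the 61 adhesion genes passed the test. In limma 0 had an adjusted p under 0.05, as did 0% of all genes, and 3 had an unadjusted p under 0.05, Pcdh9, Cntn6 and Pcdh20, all lower in pools of 400. That is 4.92% of the 61 genes, beside 0.928% of all genes that were lower at this p, and 0 of 61 were higher, beside 1.48%. The methods' t-test also gave 0 after adjustment, with 3 unadjusted, beside 408 of 14217 genes. In all, 23 of 61 genes were higher and 38 lower with 400 dendrites (median of the differences -0.13), while 51.5% of all genes were higher, with a median of 0.02. Leaving out single arrays gave 32 to 41 genes lower. Between the same pools 5 of 8 astrocyte markers were lower (S100b differed by -1.45, limma unadjusted p = 0.168). Of the fibroblast and mural markers 6 of 7 were higher, among them Col3a1 by 1.76 and Lum by 2.33. Their limma unadjusted p values were 0.00397 and 0.0621 (adjusted p = 0.999 for both). The part of either set of markers in the values of the 61 genes was not tested. Standard errors had a median of 0.45, and the median 95% interval, before adjustment, reached 0.99 to either side. Differences of a doubling would mostly not have been detectable, and larger ones could be missed after adjustment. In simulated data with the genes' spread, 50 genes each were changed by 1, 2, 3 and 4 log2 units at once. Of these, 2, 26, 39 and 47 of 50 were called, and 5 unchanged genes were called too. As many genes changed together, which eases the adjusted threshold, these shares do not hold for a single changed gene.

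Pcdh9, which encodes a non-clustered protocadherin of the brain, was at 8.69, 9.51 and 9.82 in pools of 100, at 8.31, 6.64 and 8.45 in pools of 200, and at 6.94, 7.91 and 7.84 in pools of 400. All 3 values of the smallest pools lay above the other 6. Its difference between 400 and 100 dendrites was -1.77 ± 0.53 (SE), with a 95% interval of -2.94 to -0.61 (limma unadjusted p = 0.00619, adjusted p = 0.999). Between 200 and 100 dendrites it was -1.54 ± 0.53 (limma unadjusted p = 0.0139), and -0.96 without replicate 2 of the 200-dendrite pools. Both contrasts share the 100-dendrite arrays. The larger part came from the probe set 1383783_at, with a difference of -2.77 for 400 against 100, while 1397688_at had -0.77. Within the pools of 100 the first of these ran from 8.87 to 12.96. Without replicate 1 of the 400-dendrite pools the gene's difference was -1.46.

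Cntn6, a contactin of developing neurons, was at 7.66, 7.37 and 7.30 in pools of 100, at 6.65, 7.39 and 7.44 in pools of 200, and at 5.54, 6.67 and 6.14 in pools of 400. The largest pools did not overlap with the smallest, and overlapped with the middle ones by less than 0.1 log2 units. The difference between 400 and 100 dendrites was -1.33 ± 0.40 (SE, limma unadjusted p = 0.00627, adjusted p = 0.999), and between 400 and 200 it was -1.05 ± 0.40 (limma unadjusted p = 0.0229). Its single probe set stood at the 40.7 percentile. Pcdh20, another non-clustered protocadherin, had a 95% interval of -1.99 to -0.02 (limma unadjusted p = 0.0468). Leaving out its highest array, replicate 1 with 100 dendrites, gave a difference of -0.58. Its arrays overlapped, with 8.68, 7.63 and 7.16 for 100 dendrites and 6.51, 6.56 and 7.38 for 400.

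On the higher side the smallest p values belonged to Cdh23, L1cam and Cdh20. Cdh23 had means of 8.36 ± 0.19 with 400 and 7.58 ± 0.78 with 100 dendrites (limma unadjusted p = 0.0875), L1cam at 9.18 ± 0.33 against 8.30 ± 0.57 (limma unadjusted p = 0.103, SD, n = 3 each), and Cdh20 at 8.54 ± 0.38 against 7.91 ± 0.28 (limma unadjusted p = 0.166). Without 1 array of either pool size these differences went as low as 0.33 for Cdh23 (without replicate 2 of 100), 0.57 for L1cam (without replicate 1 of 100) and 0.42 for Cdh20 (without replicate 1 of 400). These were also the 3 genes whose arrays of 400 all lay above those of 100, 4.92% of the 61 genes beside 3.67% of all genes. The arrays of 400 all lay below those of 100 for 5 genes, Pcdh9, Cntn6, Cdh2, Ctnnd2 and Pcdhb22, which is 8.2% beside 2.58% of all genes. For Cdh2 the means were 8.35 ± 0.14 and 8.85 ± 0.18, a difference of -0.50 with a 95% interval of -1.31 to 0.32. The 3 probe sets of Cdh2 differed by -0.76, -0.10 and 0.07. For Ctnnd2 the means were 11.59 ± 0.09 and 11.71 ± 0.05, a difference of -0.12. The highest array of 400 and the lowest of 100 were close, at 11.64 and 11.65 for Ctnnd2 and at 11.21 and 11.25 for Pcdhb22. By family, 7 of 9 clustered and 6 of 8 other protocadherins, 5 of 6 contactins, 3 of 3 contactin-associated proteins and 2 of 2 neurexins were lower in pools of 400. So were 2 of 3 SynCAMs, 2 of 3 of the Ncam and L1cam genes, 4 of 8 catenins and 4 of 8 type II cadherins. Of type I cadherins 1 of 4 was lower, of other cadherins 1 of 4 and of neuroligins 1 of 3. Among all genes 6900 of 14217 were lower, and differences between families were not tested.

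**Figure D4:**
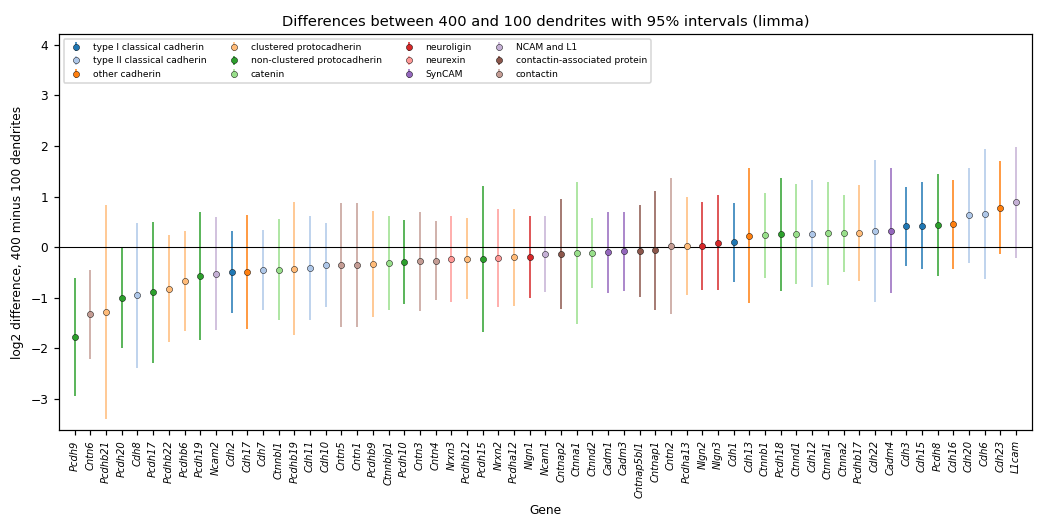
Log2 difference between 400 and 100 dendrites (vertical axis) of each of the 61 adhesion genes with its 95% interval from limma, ordered by size and coloured by family. The differences run from -1.77 for Pcdh9 to 0.89 for L1cam, and the intervals of Pcdh9, Cntn6 and Pcdh20 do not reach 0 before adjustment.

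Between 200 and 100 dendrites 0 of 61 genes passed in limma (2 unadjusted, both lower), 0% of all genes passed, and the methods' t-test gave 0 with 2 unadjusted (488 of 14217 genes). The 2 were Pcdh9 and Pcdhb12, 3.28% beside 1.53% of all genes that were lower at this p. Pcdhb12 was at 6.49, 6.47 and 7.24 in pools of 100 and at 5.92, 5.76 and 5.67 in pools of 200. The difference was -0.95 ± 0.37 (SE, limma unadjusted p = 0.0237), and the gene's 2 probe sets, 1370490_at and 1385327_at, differed by -0.17 and -1.73. In pools of 200 1385327_at was at 4.76, 5.06 and 5.02, near the lowest value of any probe set, 4.45. Pcdha12 was at 7.47 ± 0.40 against 8.34 ± 0.80 (limma unadjusted p = 0.0706), and its difference was -0.87, or -1.33 without replicate 2 of the 100-dendrite pools. At this p 0 genes were higher, beside 1.51% of all genes. Of the 61 genes 24 were higher and 37 lower, and 50.1% of all genes were higher. In the same contrast all 8 interneuron markers were lower in pools of 200, with means per array of 6.64 to 6.9997 against 7.32 to 7.51 in pools of 100 and 7.19 to 7.54 in pools of 400. Among them Dlx1 differed by -1.25 and Vip by -1.16 between 200 and 100 dendrites (limma unadjusted p = 0.00929 and 0.0273). The astrocyte markers S100b and Gfap differed by -1.55 and -1.08 (limma unadjusted p = 0.143 and 0.362). Gja1, Glul and Aldh1l1 were also lower, by -0.35, -0.53 and -0.47, while Slc1a3, Slc1a2 and Aqp4 were higher, by 0.31, 0.26 and 0.53. The part of these markers in the adhesion genes' values was not tested. The 200-dendrite arrays all lay below for Pcdh9, Pcdhb12 and Pcdh10 (4.92%, beside 3.75% of all genes) and all above for Cdh13 (1.64%, beside 4.05%). On the higher side Cdh13 differed by 1.01, L1cam by 0.79 and Cdh23 by 0.53, none under an unadjusted p of 0.05. L1cam was at 0.25 without replicate 3 of the 200-dendrite pools, and Cdh23 at 0.088 without replicate 2 of the 100-dendrite pools. With its probe set of highest mean, Cdh13 differed by -0.03.

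Between 400 and 200 dendrites, a contrast that shares its arrays with the other contrasts, 0 of 61 genes passed in limma (1 unadjusted, Cntn6), 0% of all genes passed, and the methods' t-test gave 0 with 1 unadjusted (409 of 14217 genes). That is 1.64% beside 0.851% of all genes that were lower at this p. Higher at this p were 0, beside 1.45%. By direction 30 genes were higher and 31 lower, with a median of -0.02, and 51.1% of all genes were higher. The arrays of 400 all lay above those of 200 for Cdh20, Ncam1, Nlgn3, Pcdha12 and Pcdhb12 (8.2%, beside 3.59% of all genes) and all below for Cdh7 (1.64%, beside 3.18%). Pcdhb12, Cdh20 and Cadm4 differed by 0.72, 0.83 and 1.06 on the higher side, and Pcdh17 and Ctnnbip1 by -1.19 and -0.69 on the lower side. For Pcdhb12 the direction rested on 1385327_at, with 1.44, while the brighter 1370490_at had -0.0040. Without replicate 1 of the 200-dendrite pools Cadm4 was at 0.39, Cdh20 at 0.40 and Ctnnbip1 at -1.12, and without replicate 3 of those pools Ctnnbip1 was at -0.45. Pcdh17 in pools of 400 was lowest in replicate 2, more than 2 log2 units below the 7.74 and 7.90 of the other replicates. Without that array its difference was -0.31. Taking all pool sizes at once, limma's moderated F called 0 of 61 (2 unadjusted, Cntn6 and Pcdh9, 3.28% beside 2.16% of all genes), and the slope per doubling called 0 (3 unadjusted, 4.92% beside 2.73%).

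**Figure D5:**
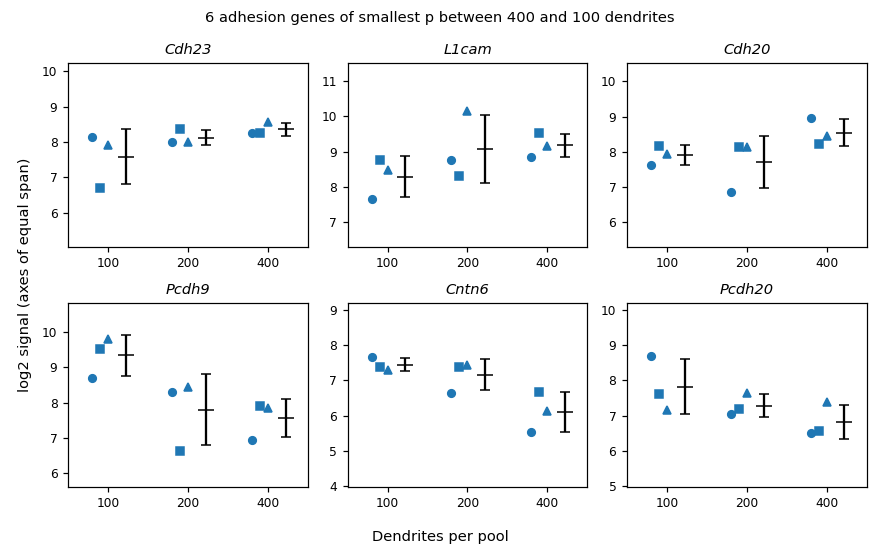
Log2 signal (vertical axes of equal span) of the 3 adhesion genes of smallest p in each direction between 400 and 100 dendrites, by pool size. Circles, squares and triangles are replicates 1, 2 and 3, and each bar gives mean and SD for the 3 arrays. The means of Pcdh9 were 9.34, 7.80 and 7.57 for 100, 200 and 400 dendrites, those of Cntn6 were 7.44, 7.16 and 6.12, and none of the 6 passed the test.

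Next, genes whose proteins bind each other were compared over the 9 arrays. Of 9 pairs chosen for known binding, 6 had both genes measured, and 0 passed after adjustment over the 6 (exact permutation test over all pairings, two-sided). Cdh2 had r = 0.329 with Ctnnb1 and 0.408 with Ctnnd2 over 9 arrays (exact permutation p = 0.377 and 0.280, adjusted 0.754 for both). Their rho was 0.433 and 0.417 (exact permutation p = 0.250 and 0.270, adjusted 0.539 for both). Without the 2 arrays farthest from the median of Cdh2 the values were 0.0647 and 0.425. Read from the brightest probe sets both turned sign, to -0.393 and -0.262. Among all genes, Ctnnb1 stood at the 80.5 and Ctnnd2 at the 86.5 percentile of correlation with Cdh2.

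The strongest of the 6 ran opposite: Cntn2 and Cntnap2, which meet next to the node of axons, had r = -0.572 and rho = -0.733 (exact permutation p = 0.0924 and 0.0311, adjusted 0.554 and 0.187), and r = -0.605 without 2 arrays. Read from the brightest probe sets, its sign turned, to r = 0.503. Ncam1 and L1cam had r = -0.191 and rho = -0.0667 (exact permutation p = 0.620 and 0.880, adjusted 0.872 and 0.880), and r = -0.348 without 2 arrays. Cntn1 and Cntnap1 had r = 0.0802 and rho = 0.317 (exact permutation p = 0.872 and 0.410, adjusted 0.872 and 0.615), and r = 0.272 without 2 arrays. Ctnnb1 and Ctnna2 had r = 0.0669 and rho = -0.15 (exact permutation p = 0.857 and 0.708, adjusted 0.872 and 0.850), and r = -0.155 without 2 arrays. Each pool size holds 3 arrays, too few for a value within it. On deviations from the pool size means r was 0.557 for Cdh2 with Ctnnb1, -0.548 for Cntn2 with Cntnap2 and 0.0292 for Cntn1 with Cntnap1. It was -0.0300 for Cdh2 with Ctnnd2, -0.268 for Ctnnb1 with Ctnna2 and 0.0970 for Ncam1 with L1cam, so that these 3 turned sign.

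Adhesion genes outside these families were read from a list of 52, of which 43 were measured. Their median percentile was 54.2 and 25 of 43 stood above the 50th, beside 50% of all genes. In the top 5% were 4 of 43, beside 5.01% of all genes. The 4 were Clstn1, which encodes a calsyntenin of the synapse (11.99 ± 0.15, SD, n = 9), the ephrin receptor gene Ephb3 (11.30 ± 0.56), the ephrin gene Efnb3 (11.11 ± 0.16) and Nptn, which encodes neuroplastin (11.24 ± 0.77). None of the 43 passed between 400 and 100 dendrites in limma, and 0 had an unadjusted p under 0.05, beside 342 of 14217 genes. Between 200 and 100 dendrites 2 of 43 did, Lrfn3 (-1.07) and Chl1 (0.94), beside 431 genes, and between 400 and 200 dendrites 2 of 43 did, Lrfn3 (0.84) and Mdga2 (1.45), beside 327 genes. Between 400 and 100 dendrites the smallest p values belonged to Lrfn2 and Lrrc4b on the higher side (differences of 0.66 and 0.61) and to Adgrl3 and Ephb3 on the lower side (-1.06 and -0.38). Of 22 scaffold and pathway genes behind these receptors 20 were measured, with a median percentile of 43.0, and 1 was in the top 5%, Dlg4 of the postsynaptic density (11.42 ± 0.14).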

How the data were processed

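The samples were hybridised to 9 Affymetrix rat expression arrays. Signals were deposited on a log2 scale, as the authors obtained them from RMA 2.0 after 2 rounds of linear amplification and a final kit round; the methods state that probes were summarised by their upper decile. Such a value follows a probe set's brightest probes, and on each array 94.4% to 98.0% of the 31042 probe sets shared their value with another. The methods' median centring and percentile scaling were not in these values. All 57 control probe sets were set aside from the gene values. No detection calls were used, so no gene was filtered out. The number of arrays limits the precision.

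Of the 31042 probe sets, 20826 named 1 gene, 436 several and 9780 none. Of the 61 adhesion genes, 59 had an Entrez ID in RefSeq, and Pcdha12 and Pcdha13 kept the platform's symbol. The members, gene lists and pairs were chosen with earlier results of these data known. Pool sizes were compared by limma (version 3.58.1, R 4.3.3), with a single linear model fitted to all 14217 genes on the 9 arrays, two-sided, with Benjamini-Hochberg adjustment at 0.05. Named were, per family, the highest and lowest member, members of the top 10%, the 3 of smallest p per direction and contrast, and those of extreme spread or probe set gap; other members are given for completeness. Replicates are separate samples by label; nothing says which cultures or animals they came from, so p values measure the spread between these samples. The fit was tested on simulated data. Alternatives were other normalizations, gene summaries, filters, variance settings, a replicate block, the methods' t-test and leaving out each array. Ranks, permutations and figures used Python 3.11.15 with numpy 2.4.6, pandas 2.3.3, scipy 1.17.1 and matplotlib 3.10.9. Mouse arrays were not analysed here.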

Additional observations from a re-analysis of the deposited data

How the results depend on the processing

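None of the 61 adhesion genes was called in any of the 3 contrasts, the F or the slope under any alternative run, namely the methods' centring and scaling, quantile normalization, each gene's brightest probe set, updated symbols, the upper 50% of genes by mean signal, a trend with robust variance, all probe sets, the methods' t-test (run for the 3 contrasts only), leaving out each array (0 to 0) and array weights, the last added after seeing the data. With the replicate number as a block 0 genes were called for 400 against 100 dendrites, and 0 in the other tests. Same-numbered arrays deviated together with correlations of -0.204 to 0.0873, and arrays of different numbers with -0.189 to 0.219, so the numbers were not taken to pair the samples. In the top 5% were 4 genes whichever array was left out, and with the top 10% in its place, over all arrays, there were 8. The median difference without 1 array ran from -0.25 to -0.07 for 400 against 100, from -0.17 to -0.04 for 200 against 100 and from -0.05 to 0.08 for 400 against 200 dendrites.

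Read from the probe set with the highest mean, the direction turned for Cdh13 between 200 and 100 dendrites (-0.030), for Pcdhb12 between 400 and 200 (-0.0040) and for 4 pairs, Cdh2 with Ctnnb1 (r = -0.393), Cdh2 with Ctnnd2 (-0.262), Ctnnb1 with Ctnna2 (-0.147) and Cntn2 with Cntnap2 (0.503). On deviations from pool size means it turned for Cdh2 with Ctnnd2 (-0.0300), Ctnnb1 with Ctnna2 (-0.268) and Ncam1 with L1cam (0.0970), and by Spearman correlation for Ctnnb1 with Ctnna2 (-0.15). Without 1 array r ran from -0.187 to 0.321 for Ctnnb1 with Ctnna2, from -0.0457 to 0.385 for Cntn1 with Cntnap1 and from 0.158 to 0.558 for Cdh2 with Ctnnb1. The cause of these turns was not tested.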
